A study of Mus musculus with 6 samples.

Results

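The genes described here encode the nuclear part of the oxidative phosphorylation machinery, measured in single cells of mouse germinal center (GC) B cell preparations. All symbols beginning with Nduf, Uqcr, Cox4 to Cox8 or Atp5 were taken from the gene list of the count matrices, and those with at least 100 UMIs (unique molecular identifiers, each standing for 1 captured transcript) summed over the 6 libraries were kept. This gave 83 of 88 matching symbols, among 31053 features in all, with Atp5o present a second time as a feature of 1 UMI. The symbols below the floor were Ndufa4l2 with 58 UMIs, Cox6a2 with 39, Cox8c with 1, and Cox7b2 and Cox8b with 0. The nearest above it were Cox4i2 with 111, Cox7a1 with 559 and Cox6b2 with 641. The rule also took 8 Ndufaf assembly factors, which build complex I without staying in it, the supercomplex factor Cox7a2l and Atp5s, known as factor B of the ATP synthase. Ndufa4 is counted with complex IV, in which its protein resides. The group called F1 head below holds Atp5a1, Atp5b, Atp5c1, Atp5d and Atp5e, so it is not the catalytic alpha and beta subunits alone.

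Oxidative phosphorylation takes place in the inner mitochondrial membrane. Complex I and complex II pass electrons from NADH and succinate through ubiquinone to complex III, and cytochrome c carries them on to complex IV, where oxygen is reduced. The proton gradient built on the way drives complex V, the ATP synthase. Complexes I, III, IV and V are assembled from subunits of both genomes, a few encoded by mitochondrial DNA (mtDNA) and most of the others by the nuclear genes described here. In a GC, B cells divide rapidly in the centroblast (CB) state, undergo selection in the centrocyte (CC) state, may re-enter division after a pulse of Myc, or leave as memory B cells and plasma cells.

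The 6 libraries came from splenic GC B cells of mice immunized with sheep red blood cells, 3 of the Smc3 wt/wt and 3 of the Smc3 wt/- genotype by their labels. The study deletes Smc3 with Cγ1-Cre, which is active in B cells that have entered the GC response. Smc3 wt/- has 1 deleted allele of Smc3, a subunit of the cohesin ring. The study names this Cre in both genotypes for mice of other experiments, while its single-cell methods name only the Smc3 alleles. T and myeloid cells are not targets of this Cre, so those from an Smc3 wt/- library need not lack the allele. Age and sex are not given in the labels, and beyond the replicate numbers nothing ties each library to its own animal. The study's methods state as many Smc3 wt/- mice as there are Smc3 wt/- libraries, but more Smc3 wt/wt mice than the Smc3 wt/wt libraries analysed here, so whether a library holds 1 animal or a pool is not known. P-values therefore measure the spread between these 6 libraries.

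After filtering, 20809 cells were kept, from libraries of 5223325 to 35354257 UMIs. Clustering without the genes described here gave 17 clusters, which were named from marker genes: CB-like, S-phase GC B-like, CC-like, recycling-like (named from Myc and growth genes such as Srm and C1qbp), naive or memory B-like, plasmablast-like (PB-like), plasma cell-like (PC-like), T cell-like and myeloid-like, with 1 haemoglobin-led cluster of 3712 cells left unnamed. By its marker score this cluster was closest to CC cells, but haemoglobin genes led it, under a naming rule completed after the clusters were seen. CC-like here is therefore a single cluster of 1260 cells led by Nfkbid, Il4i1 and Cd83, whereas at resolution 1 a cluster of 1972 cells was also taken as CC-like. Myc itself was higher in CC-like cells too, by 3.07 on the log2 scale against CB-like cells, and by 2.73 in recycling-like cells, so it does not set these classes apart. The label GC B cell therefore does not cover every cell. Smc3 wt/- replicate 2 stood apart: 51.9% of its UMIs were immunoglobulin, and 2.37% to 3.90% elsewhere, and it held 1384 of 1464 PC-like and 639 of 742 myeloid-like cells. Between 4 and 43 cell barcodes were shared by any pair of libraries, 276 in all. Immunoglobulin genes were left out of every total below, and a level is given in CPM, the UMIs of a gene per fixed number of remaining UMIs after TMM scaling.

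As a group, these transcripts took 3.37% ± 0.164 (SD, n = 6 libraries) of non-immunoglobulin UMIs in CB-like cells. The share was higher in S-phase GC B-like cells, at 3.66% ± 0.166, and in recycling-like cells, at 3.63% ± 0.123, in 6 of 6 libraries each. Among S-phase cells the cluster led by Ccne2, Ung and Cdc6 was higher, while the other lay near CB-like cells, as given under other observations. It was lower in 6 of 6 libraries in CC-like cells, at 3.14% ± 0.146, in T cell-like cells, at 2.75% ± 0.239, and in naive or memory B-like cells, at 2.49% ± 0.185. In T cell-like cells the share was 0.743 to 0.819 times that of CB-like cells in 5 libraries but 0.996 times in Smc3 wt/- replicate 2, so that library showed next to no difference. Myeloid-like cells, with 4 libraries of at least 20 cells, had 2.42% ± 0.0896. Plasma-lineage cells averaged 3.44% ± 0.468 and lay above CB-like in 5 libraries and below it in Smc3 wt/- replicate 2. The ranges of neighbours in this order overlapped across libraries, but within libraries CB-like cells were above CC-like cells in 6 of 6 and T cell-like above naive or memory B-like cells in 6 of 6. S-phase GC B-like cells were above recycling-like cells, and CC-like above T cell-like cells, in 5 of 6. Recycling-like cells were above plasma-lineage cells in only 3 of 6 libraries. Naive or memory B-like cells had a higher mean than myeloid-like cells, but over 6 libraries against 4. Within the 4 shared libraries they were above myeloid-like cells in 1.

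**Figure D1:**
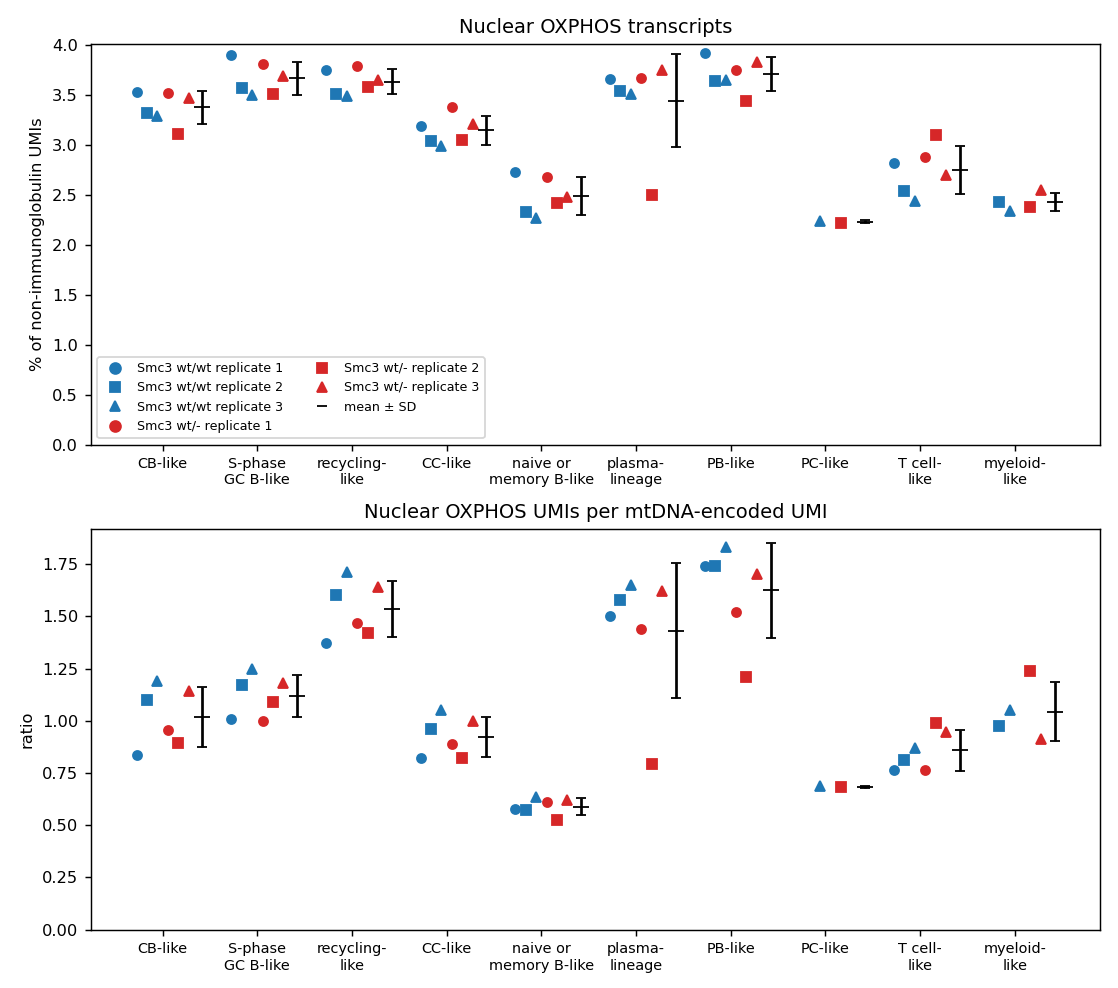
Share of non-immunoglobulin UMIs taken by the 83 nuclear oxidative phosphorylation genes (upper panel, percent) and their UMIs per mtDNA-encoded UMI (lower panel, ratio) in each class of cells (x axis), with 1 point per library coloured by genotype and bars at the mean ± SD. In the upper panel recycling-like, PB-like and S-phase GC B-like cells sit above CB-like cells, while the naive or memory B-like class, at 2.27% to 2.73%, lies below every CB-like library.

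The number of these transcripts per cell followed the size of the cells' libraries. Recycling-like cells held 656 ± 143 such UMIs per cell and CB-like cells 233 ± 45, whereas naive or memory B-like cells held 75.9 ± 5.3 and T cell-like cells 58.2 ± 16.2 (SD, n = 6). Set against the mtDNA-encoded subunits of the same complexes, the nuclear transcripts numbered 1.02 ± 0.144 per mtDNA-encoded UMI in CB-like cells, 1.53 ± 0.135 in recycling-like cells, 1.62 ± 0.226 in PB-like cells and 0.590 ± 0.0409 in naive or memory B-like cells. Within libraries the ratio in recycling-like cells was 1.44 to 1.64 times that of CB-like cells, and in naive or memory B-like cells 0.520 to 0.690 times. In plasma-lineage cells of Smc3 wt/- replicate 2, most of them PC-like, the ratio was 0.792, against 0.892 in its CB-like cells. In the other libraries, where most were PB-like, the plasma-lineage ratio was above the CB-like one. The cell filter removed cells with more than 10% mtDNA-encoded UMIs, which limits this ratio from below.

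Each class was next compared with CB-like cells of the same libraries in 1 edgeR quasi-likelihood fit over 9790 genes, in which 81 of the 83 genes passed the filter on low counts and Cox7a1 and Cox4i2 did not. All of these comparisons share the CB-like sums, so they are given side by side and not counted against each other. The classes were defined from the same cells, and the p-values do not take that step into account.

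Of 81 genes, 42 rose and 7 fell in recycling-like cells, where 27.2% of all genes tested rose and 27.3% fell, and the median log2 difference was 0.22 against -0.02 over all genes. Higher were 4 of 7 core subunits of complex I, 14 of 29 supernumerary subunits, 6 of 8 assembly factors, 7 of 8 genes of complex III, and 3 of 5 of the F1 head and 4 of 11 of the stalk and membrane part of complex V. Complex IV had 4 of 13 higher and 2 lower with a median of 0.01. Its share higher, 30.8%, was near that over all genes, and its share lower, 15.4%, was below the 27.3% over all genes. The others that fell were 2 supernumerary subunits, 1 assembly factor, 1 gene of complex III and 1 of the stalk and membrane part. The counts were 49 and 16 without Smc3 wt/- replicate 2, with 32.5% and 34% of genes called, and 30 and 14 when only total counts were scaled, with 22.8% and 31.5% called. Recycling-like cells were also the most deeply covered, with a median of 19180 UMIs in their cluster.

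Ndufaf4, a complex I assembly factor, showed the largest difference. Its level lay between 24.3 and 31.1 CPM in CB-like cells (median 27.4) and between 116 and 154 in recycling-like cells (median 135). The log2 difference was 2.27 (SE 0.11, adjusted p = 1.4e-21), with no overlap between classes. The same gene had 82.3 to 98.9 CPM in CC-like cells (log2 difference 1.75, adjusted p = 5.83e-17) and 34.0 to 55.7 in S-phase GC B-like cells (0.68, adjusted p = 3.1e-06), again above every CB-like library. Atp5g1, which encodes the c subunit of the rotating membrane ring, rose from 357 to 464 CPM (median 404) in CB-like cells to 856 to 1120 (median 1000) in recycling-like cells, a log2 difference of 1.30 (SE 0.11, adjusted p = 1.46e-13) and without overlap.

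Other assembly genes moved with Ndufaf4. Ndufaf2, a late-acting assembly factor, rose by 1.11 (SE 0.12, adjusted p = 9.71e-11) from 32.2 to 41.9 CPM to 72.0 to 91.4 CPM. Ndufaf6 rose by 1.24 (SE 0.16, adjusted p = 7.16e-09), from a median of 18.6 to 42.1 CPM. Both were higher in all 6 libraries without overlap. Ndufab1, the mitochondrial acyl carrier protein and also a subunit of complex I, went from 224 to 290 CPM to 445 to 540 CPM (log2 difference 0.89, SE 0.10, adjusted p = 3.37e-10).

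Ndufaf3, another assembly factor, moved the opposite way. It fell from 65.6 to 82.3 CPM (median 75.5) to 29.4 to 48.0 CPM (median 37.1), a log2 difference of -0.90 (SE 0.10, adjusted p = 5e-10). The 2 ranges did not overlap. Ndufaf3 was also the lone member called lower than CB-like in S-phase GC B-like cells, and its differences in the other classes lay between -0.35 in plasma-lineage and -0.83 in myeloid-like cells, each called. Cox7a2l, which joins complexes III and IV into supercomplexes, fell from 385 to 640 CPM (median 514) to 236 to 320 (median 272), a log2 difference of -0.91 (SE 0.13, adjusted p = 1.48e-07). Of the other genes that fell, Atp5s had -0.53 (adjusted p = 0.0112), Ndufa1, a small membrane subunit of complex I, -0.42 (adjusted p = 0.0278) and Ndufa11 -0.30 (adjusted p = 0.00784). Uqcrh and Cox6c fell by 0.24 and 0.20, and these 7 genes are all that were called lower.

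**Figure D2:**
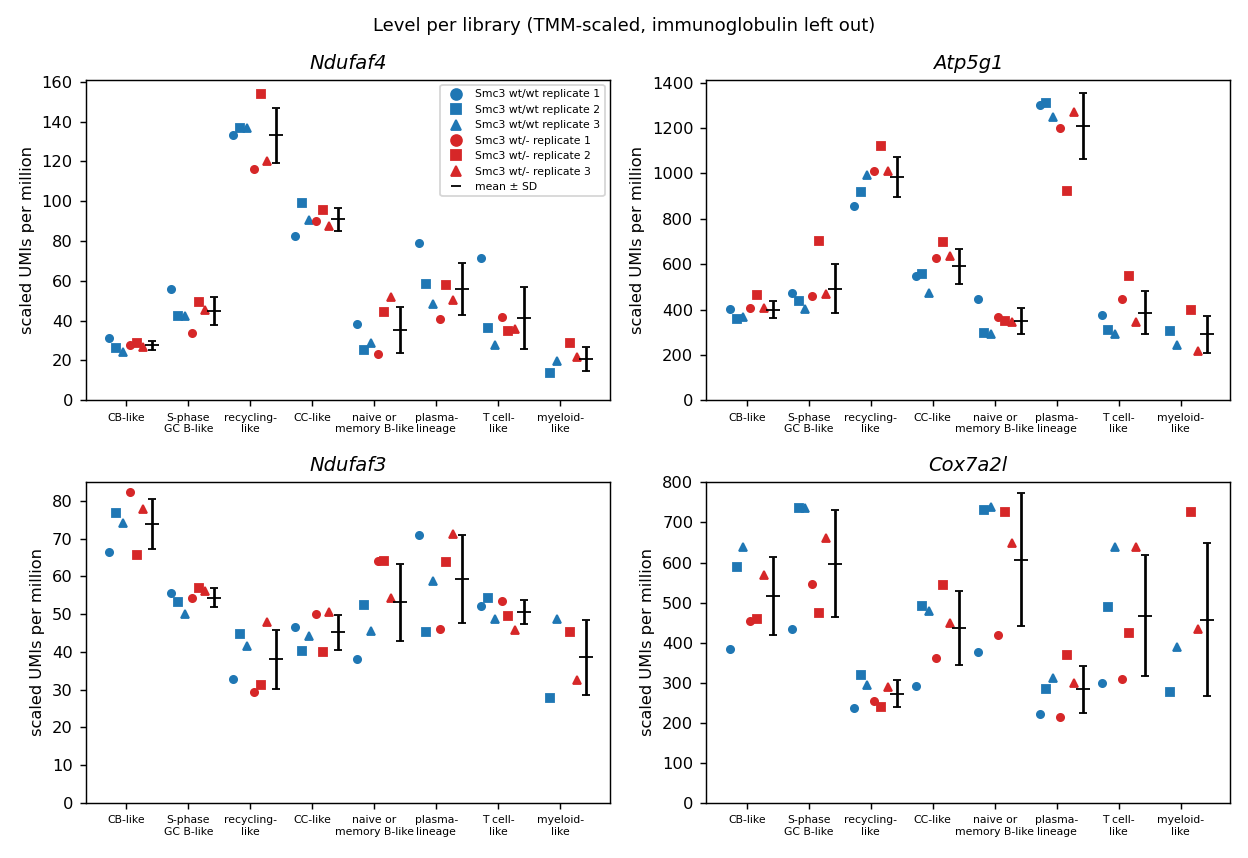
Levels of Ndufaf4, Atp5g1, Ndufaf3 and Cox7a2l in CPM (y axis, TMM-scaled) in each class of cells (x axis), with 1 point per library coloured by genotype and bars at the mean ± SD. Ndufaf4 is 116 to 154 in recycling-like and 82.3 to 98.9 in CC-like cells against 24.3 to 31.1 in CB-like cells, and Ndufaf3 has its highest median, 75.5, in CB-like cells.

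The stretches upstream of these 4 genes are shown because their levels moved most in opposite directions. Each is the 250 bases before the annotated start (RefSeq, GRCm38.p6), 5′ to 3′ on the gene's strand, at chr4:24897833-24898082 (+) for Ndufaf4, chr11:96075632-96075881 (-) for Atp5g1, chr9:108567437-108567686 (-) for Ndufaf3 and chr17:83514334-83514583 (-) for Cox7a2l. Capitals mark a match to TGCGCA, the core of the site of NRF1, a regulator of respiratory genes, or to the E-box CACGTG, which Myc can bind. CCGGAAG (ETS type) and AGATGGC (YY1 type) were searched too, all on both strands, and no motif contains another.
Ndufaf4: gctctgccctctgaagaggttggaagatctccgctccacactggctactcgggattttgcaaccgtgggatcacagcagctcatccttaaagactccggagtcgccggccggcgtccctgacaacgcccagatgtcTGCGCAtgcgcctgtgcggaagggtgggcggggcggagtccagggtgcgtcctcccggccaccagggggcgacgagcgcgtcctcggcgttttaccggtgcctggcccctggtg
Atp5g1: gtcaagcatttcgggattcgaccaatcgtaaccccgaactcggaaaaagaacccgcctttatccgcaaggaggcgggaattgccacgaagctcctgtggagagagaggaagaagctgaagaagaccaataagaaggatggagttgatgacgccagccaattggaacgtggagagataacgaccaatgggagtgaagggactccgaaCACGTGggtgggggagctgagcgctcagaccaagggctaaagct
Ndufaf3: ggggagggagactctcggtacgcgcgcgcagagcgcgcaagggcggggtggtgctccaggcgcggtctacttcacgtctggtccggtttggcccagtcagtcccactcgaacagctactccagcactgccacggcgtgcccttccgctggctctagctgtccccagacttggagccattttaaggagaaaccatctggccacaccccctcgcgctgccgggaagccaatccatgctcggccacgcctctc
Cox7a2l: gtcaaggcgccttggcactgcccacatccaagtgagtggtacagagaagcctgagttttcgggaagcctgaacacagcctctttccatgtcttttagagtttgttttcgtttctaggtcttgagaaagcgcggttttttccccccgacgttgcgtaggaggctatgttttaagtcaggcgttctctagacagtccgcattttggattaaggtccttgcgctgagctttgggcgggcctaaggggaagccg
Ndufaf4 held the NRF1 core at position -114 and Atp5g1 the E-box at -44, and neither of the other two windows held any of the 4 motifs.

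All 83 genes matched a RefSeq gene and 71 had at least 1 window of 300 bases (250 before and 50 after the start), 76 windows in all. The NRF1 core was found in 23.7% of these and in 7.76% of all 32851 windows, the ETS motif in 21.1% and 8.86%, the YY1 motif in 15.8% and 6.4%, and the E-box in 9.21% and 7.15%. The windows of these genes were also richer in G and C, with a median of 58% against 52.7%, and the part of base composition in the motif shares was not tested. Among the 35 genes with a window that rose in recycling-like cells, 10 held the NRF1 core, 5 the ETS motif, 7 the YY1 motif and 3 the E-box, and among 35 tested genes that did not rise, 7, 11, 5 and 3 did. Genes without a window included Atp5a1, Cox4i1, Cox4i2, Cox6c, Ndufa2, Ndufaf6, Ndufb9, Ndufs1, Uqcrb, Uqcrc2 and Uqcrq.

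Neighbouring pathways moved to different degrees in recycling-like cells. Of 17 glycolytic genes 14 rose and none fell, with a median log2 difference of 1.03, and Hk2, the hexokinase that starts the pathway, had 2.52 (SE 0.18, adjusted p = 1e-15). Of 18 genes of the TCA cycle 9 rose and 1 fell, and of 77 mitochondrial ribosomal proteins 66 rose and 2 fell. Cycs, cytochrome c, had 1.15 (SE 0.12, adjusted p = 2.34e-11). Of the 13 mtDNA-encoded subunits 1 rose and 6 fell, among them mt-Co3 at -0.62 (adjusted p = 3.29e-07) and mt-Co1 at -0.57 (adjusted p = 1.55e-06), both part of the catalytic core of complex IV. Of 80 cytosolic ribosomal protein genes, 69 rose and 1 fell. Lists and classes overlap in part, since several recycling markers belong to growth and ribosome genes.

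Of 81 genes in CC-like cells 5 rose and 8 fell, with 18% of all genes higher and 13.3% lower and a median of -0.07 against 0.03. Of the 8 assembly factors 2 rose and 1 fell, shares of 25.0% and 12.5%. Besides Ndufaf4, Ndufaf6 rose by 0.51 (SE 0.18, adjusted p = 0.0291), but it had -0.19 at clustering resolution 1 (adjusted p = 0.491). Ndufaf3 fell by 0.73 on the log2 scale (SE 0.11, adjusted p = 4.36e-07). Atp5g1 rose by 0.56 (SE 0.11, adjusted p = 8.07e-05), from a median of 404 to one of 592 CPM, without overlap. Cox7a2, a subunit of complex IV, fell by 0.32 on the log2 scale (SE 0.09, adjusted p = 0.00337), from 485 to 633 CPM to 394 to 496 CPM, with a small overlap. Ndufs5 fell by 0.38, Ndufb9 by 0.30 and Ndufb11 by 0.27, all supernumerary subunits of complex I, while Ndufb4 rose by 0.31 and Ndufa12 by 0.27. Without Smc3 wt/- replicate 2 the counts were 8 higher and 44 lower, with 22.9% and 22.8% of genes called, and the median was -0.13. That library held 129 CB-like cells. With all libraries kept, 5 were higher and 35 lower by DESeq2, with 16.3% and 16.1% of genes called, and 4 and 36 with doublets kept, with 14% and 21.9%, so the count of 13 depends on the method as well. RLE scaling gave 5 and 20, with 16.4% and 16% called, and total counts 3 and 14, with 15.9% and 14.1% called.

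In S-phase GC B-like cells 3 genes rose and 1 fell, against 9.15% and 8.42% of all genes, with a median of 0.14 against 0.02. Ndufaf2 rose by 0.38 (SE 0.12, adjusted p = 0.0151) and Uqcrb, a small subunit of complex III, by 0.28 (SE 0.09, adjusted p = 0.0256), together with Ndufaf4. Uqcrb lay between 537 and 677 CPM against 449 to 543 in CB-like cells, so the classes overlapped slightly. There were 28 higher and 1 lower without Smc3 wt/- replicate 2, with 21.2% and 22.2% of genes called and a median of 0.08.

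Naive or memory B-like cells had lower levels across nearly all complexes. Of 81 genes 53 fell and 4 rose, against 26.2% and 27.4% of all genes, with a median of -0.36 against 0.03. The genes that fell included 5 of 7 core subunits of complex I, 20 of 29 supernumerary subunits, 6 of 8 genes of complex III, 10 of 13 of complex IV and 3 of 5 and 7 of 11 of the 2 parts of complex V, but 2 of 8 assembly factors. The counts were 58 lower and 7 higher without Smc3 wt/- replicate 2, with 29% and 30.6% of genes called.

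Atp5g3, which encodes the same c subunit as Atp5g1, fell from 315 to 456 CPM (median 374) in CB-like cells to 172 to 240 (median 210), a log2 difference of -0.89 (SE 0.11, adjusted p = 1.31e-09). Ndufs1, the largest core subunit of complex I, fell from 50.6 to 70.6 CPM to 28.7 to 41.9 CPM (log2 difference -0.86, SE 0.11, adjusted p = 1.39e-08). Ndufab1 fell from a median of 254 to one of 136 CPM (-0.85, SE 0.11, adjusted p = 5.73e-09). None of the 3 overlapped between the classes. Ndufaf2 fell by 0.86 (SE 0.17, adjusted p = 2.23e-05). Cox6b2, the testis-type isoform of a complex IV subunit, had -2.09 (SE 0.60, adjusted p = 0.00285) but rests on 7 UMIs in the class.

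The genes that rose against this direction were few. Ndufa6, a complex I subunit that binds Ndufab1, rose from 244 to 267 CPM to 322 to 458 CPM, a log2 difference of 0.56 (SE 0.11, adjusted p = 3.64e-05) without overlap. Ndufa3, another accessory subunit, rose by 0.31 (SE 0.09, adjusted p = 0.00399), and Uqcrh, the hinge protein of complex III, by 0.31 (SE 0.08, adjusted p = 0.000825). Ndufaf4 was called too, at 0.38 (adjusted p = 0.0144), though in 4 of 6 libraries only. The mtDNA-encoded subunits went the other way from the nuclear ones: 9 of 13 rose and none fell (median 0.40), with mt-Co1 at 0.90 (SE 0.10, adjusted p = 5.89e-11). The TCA cycle had 12 of 18 genes lower and none higher, including Idh2, the mitochondrial isocitrate dehydrogenase, at -1.66 (SE 0.22, adjusted p = 2.14e-08), while 66 of 80 cytosolic ribosomal protein genes rose and 1 fell.

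T cell-like and myeloid-like cells, which are outside the B lineage, also had lower levels. In T cell-like cells 46 fell and 5 rose, against 22.9% and 21.7% of all genes, with a median of -0.36 against -0.04. Without Smc3 wt/- replicate 2 it was 52 and 3, with 25.4% and 21.1% called, and RLE scaling gave 38 and 10, with 18.6% and 25.4%. In myeloid-like cells 48 fell and 3 rose, against 26.6% and 24.2%, with a median of -0.42 against -0.11. The counts were 48 and 2 without that library, with 19.3% and 13.3% called and a median of -0.65 against -0.39, and 31 and 8 with RLE scaling, with 22.3% and 26.6%. In complex V, 4 of 5 genes of the F1 head and 8 of 11 of the stalk and membrane part fell in T cell-like cells, and 4 of 5 and 9 of 11 in myeloid-like cells, with none higher in either. Complex I core subunits fell in 6 and 5 of 7 with none higher, and supernumerary ones in 12 and 16 of 29. The catalytic head of the ATP synthase was among the genes that fell most: Atp5b, the catalytic beta subunit, had 360 to 637 CPM in myeloid-like cells against 989 to 1430 in CB-like cells (log2 difference -1.19, SE 0.14, adjusted p = 2.37e-09), and Atp5a1, the alpha subunit, had 222 to 370 CPM against 619 to 838 (-1.16, SE 0.15, adjusted p = 6.16e-09).

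Atp5g3 fell by 1.23 (SE 0.15, adjusted p = 4.9e-09), Ndufab1 by 1.08 (SE 0.16, adjusted p = 2.45e-07) and Atp5g2 by 0.96 (SE 0.14, adjusted p = 1.25e-07) in myeloid-like cells. Among genes lower in all 6 libraries of T cell-like cells were the complex I core subunits Ndufs8 at -0.97 (SE 0.12, adjusted p = 1.89e-09) and Ndufs1 at -0.96 (SE 0.17, adjusted p = 2e-05), with Ndufs5 at -0.87 and Atp5a1 at -0.86. Ndufs8 lay between 97.1 and 208 CPM against 286 to 369 in CB-like cells. Of the genes called in T cell-like cells Atp5s had the lowest fitted value, -2.12 (SE 0.55, adjusted p = 0.00276), on 1 UMI in each of 3 libraries and 0 in the others. Ndufaf6 was called too, at -1.34 (SE 0.50, adjusted p = 0.0247), lower in 5 of 6 libraries. Cox6b2 had -2.85 there on a single UMI and was not called (adjusted p = 0.0547). Ndufa6 and Ndufa3 were again higher than in CB-like cells: 0.41 and 0.46 in T cell-like and 0.81 and 0.38 in myeloid-like cells, each called. Cox7c, a small subunit of complex IV, rose by 0.25 in T cell-like cells (SE 0.09, adjusted p = 0.0197), and Ndufaf4 by 0.51 (SE 0.20, adjusted p = 0.0469). The mtDNA-encoded subunits were lower in myeloid-like cells, with 10 of 13 called and a median of -0.59.

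**Figure D3:**
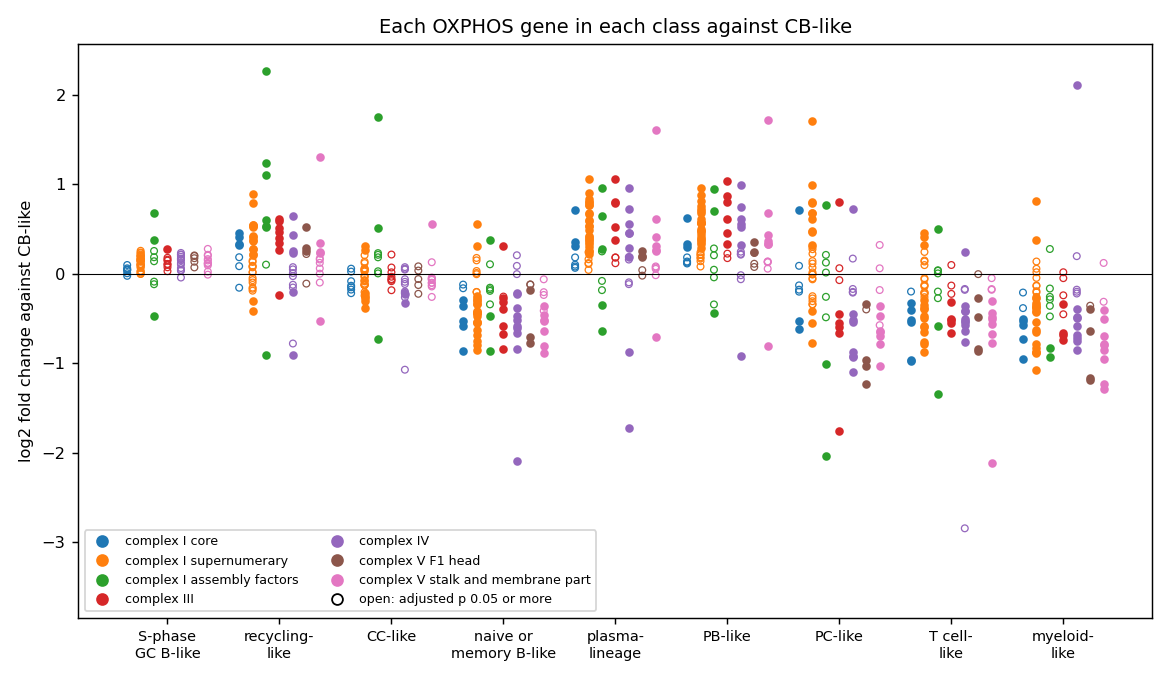
Log2 difference from CB-like cells (y axis) of each tested gene (points), in each class of cells (x axis), coloured by complex, with filled points past the adjusted p threshold of 0.05 and open points not. In recycling-like cells the assembly factors span -0.90 to 2.27. In naive or memory B-like, T cell-like and myeloid-like cells most points of each group lie below 0. The exception is the assembly factors in T cell-like cells, with 4 above and 4 below.

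Plasma-lineage cells, PB-like and PC-like together, had 51 genes higher and 5 lower, against 32.5% and 25.9% of all genes, with a median of 0.29 against 0.08. Without Smc3 wt/- replicate 2 it was again 51 and 5, with 29.4% and 30.3% called. This count depends on scaling: with total counts alone, 21 rose and 21 fell, with 20% and 43% of genes called, and the median was -0.06, while that of all genes was -0.31, so relative to all genes the set stayed higher. The class also differs in makeup, since in Smc3 wt/- replicate 2 most of its cells were PC-like and in the other libraries PB-like. Atp5g1 rose most, from 357 to 464 CPM to 923 to 1310 (log2 difference 1.61, SE 0.11, adjusted p = 7.41e-17). By complex, 3 of 7 core and 24 of 29 supernumerary subunits of complex I rose and none fell, complex III had 5 of 8 higher and none lower, complex IV 7 and 2 of 13, and the 2 parts of complex V 3 and 0 of 5 and 6 and 1 of 11. All 29 supernumerary subunits had a positive difference, between 0.04 and 1.06, the highest being that of Ndufa1. The assembly factors were divided, with 3 higher and 2 lower of 8: Ndufaf4 rose by 0.96 (SE 0.12, adjusted p = 6.54e-09), while Ndufaf3 and Ndufaf6 fell. Cox7c rose by 0.96 (SE 0.08, adjusted p = 8.38e-14), Uqcrq, a small subunit of complex III, by 1.06 (SE 0.09, adjusted p = 1.94e-13), and Cox7a2l fell by 0.88 (SE 0.14, adjusted p = 3.28e-07).

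Both states were therefore also fitted apart, in sums of at least 10 cells over 9322 genes, a step chosen after the pooled values were seen, as were the genes named from it. The CPM values of this fit have their own scaling. PB-like cells had 47 genes higher and 3 lower, against 30.7% and 26.2% of all genes, and a median of 0.33 against 0.04. PC-like cells had 14 higher and 30 lower, against 27.2% and 31.2%, and a median of -0.21 against -0.08. Without Smc3 wt/- replicate 2 the counts for PB-like cells were 49 and 5, with 28.9% and 31.8% of genes called, and for PC-like cells 7 and 41, with 11.7% and 25.4%. With total counts they were 29 and 6, with 22.7% and 38.9%, and 9 and 57, with 16.2% and 54.3%. The PC-like median was then close to that of all genes, at -0.57 against -0.57 without that library and -0.65 against -0.73 with total counts. In PC-like cells the other 5 libraries held 31467 to 117373 UMIs each and Smc3 wt/- replicate 2 held 6401854. The members took 3.70% ± 0.168 (SD, n = 6) of non-immunoglobulin UMIs in PB-like cells and 2.22% and 2.24% in the 2 libraries with at least 20 PC-like cells.

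By complex, of 29 supernumerary subunits of complex I 10 rose and 3 fell in PC-like cells, while complex III had 1 higher and 5 lower of 8, complex IV 1 and 7 of 12, and the F1 head and the stalk and membrane part of complex V none higher with 4 of 5 and 7 of 11 lower. No difference between complexes was tested. When Smc3 wt/- replicate 2 was left out, only 5 of the 10 supernumerary subunits were still called higher and 9 of 29 were lower, and with total counts 6 of the 10 were higher and 14 of 29 lower. The 2 parts of complex V then had none higher and 5 of 5 and 8 of 11 lower, and 5 of 5 and 10 of 11. The mtDNA-encoded subunits had 7 of 13 higher and none lower.

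Ndufa1 in PC-like cells had 926, 974 and 832 CPM in Smc3 wt/wt replicates 1 to 3 and 771, 1590 and 754 in Smc3 wt/- replicates 1 to 3. The matching CB-like values were 338, 292 and 282, and 366, 229 and 311. The log2 difference was 1.71 (SE 0.18, adjusted p = 1.29e-12), and 1.48 without Smc3 wt/- replicate 2 (adjusted p = 8.78e-18). No PC-like library overlapped the CB-like ones, and PB-like cells lay between, with a log2 difference of 0.82 (adjusted p = 1.51e-05) and of 0.30 without that library. Uqcr10, a small subunit of complex III, showed the reverse, with 261, 133 and 154 CPM, and 70.1, 203 and 175 CPM in PC-like cells, a log2 difference of -1.76 (SE 0.17, adjusted p = 1.14e-13). In PB-like cells it was called higher, at 0.33 (adjusted p = 0.0186), but not with total counts (0.06, adjusted p = 0.636).

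Atp5b had 261, 734 and 832 CPM, and 257, 896 and 491 CPM in PC-like cells, below its CB-like value in each of the 6 libraries (log2 difference -1.03, SE 0.17, adjusted p = 5.26e-07). In PB-like cells it was higher in all 6 (0.36, adjusted p = 0.0358), though with total counts the difference was 0.08 and not called (adjusted p = 0.516). Atp5a1 fell by 1.23 and Cox6c, a subunit of complex IV, by 0.93 in PC-like cells, each lower in 6 of 6 libraries, while their PB-like differences of 0.08 and -0.01 were not called. With total counts Cox6c was called lower in PB-like cells too, at -0.29 (adjusted p = 0.000591), and without Smc3 wt/- replicate 2 at -0.16 (adjusted p = 0.0333). Ndufv3 rose by 0.99, Uqcrq by 0.81, Ndufb4 by 0.81 and Ndufa4 by 0.73 in PC-like cells. Atp5g1, at 1.72 in PB-like cells (SE 0.12, adjusted p = 2.55e-18), had 0.32 in PC-like cells (adjusted p = 0.0517) and was above its CB-like value in 3 of 6 libraries. Cox7a2l was lower in both, at -0.92 and -1.10. The difference between PB-like and PC-like cells was not itself tested.

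**Figure D4:**
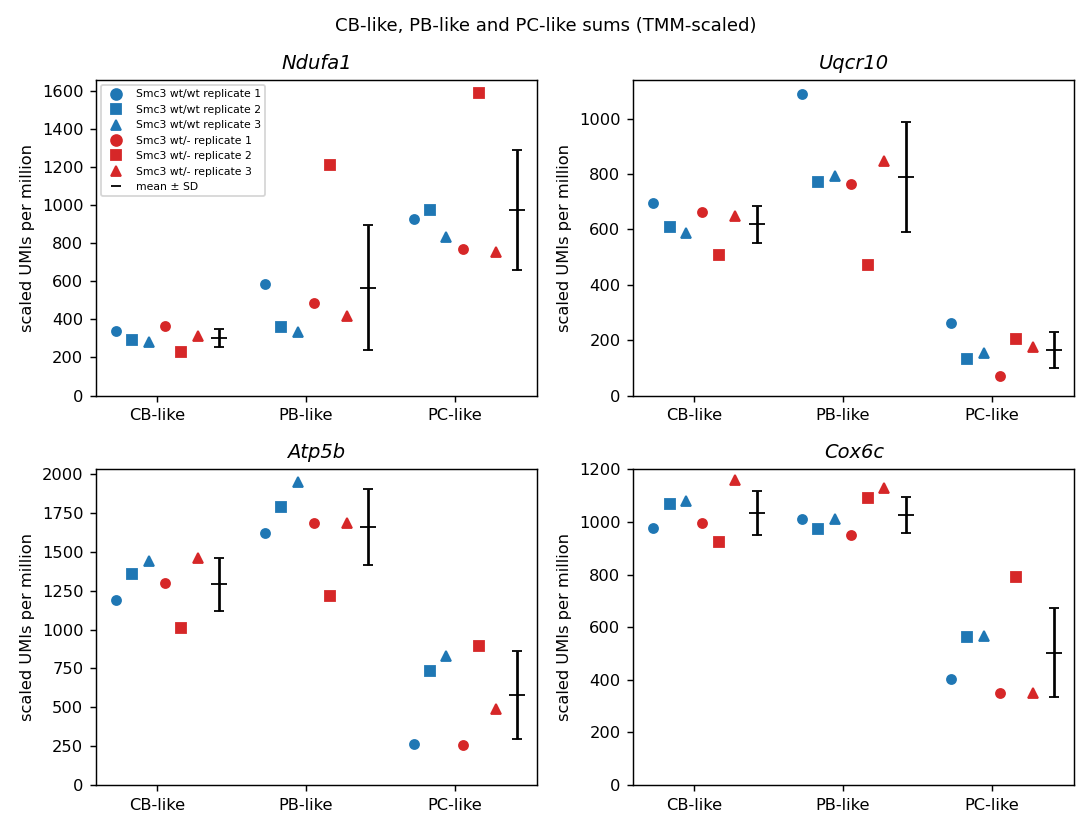
Levels of Ndufa1, Uqcr10, Atp5b and Cox6c in CPM (y axis, TMM-scaled) in CB-like, PB-like and PC-like cells (x axis), with 1 point per library coloured by genotype and bars at the mean ± SD. Ndufa1 is 754 to 1590 in PC-like cells and 229 to 366 in CB-like cells, and Uqcr10 is 70.1 to 261 in PC-like cells.

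Several subunits are made from more than 1 gene. Atp5g1, Atp5g2 and Atp5g3 encode the same mature c subunit with different import sequences. In recycling-like cells Atp5g1 rose while Atp5g2 had 0.16 (adjusted p = 0.186) and Atp5g3 0.17 (adjusted p = 0.149), and in plasma-lineage cells they had -0.01 (adjusted p = 0.923) and 0.06 (adjusted p = 0.666). In naive or memory B-like cells Atp5g3 fell, while Atp5g1 had -0.20 (adjusted p = 0.124) and Atp5g2 -0.24 (adjusted p = 0.0512). In T cell-like cells Atp5g2 and Atp5g3 fell by 0.57 and 0.67, and Atp5g1 had -0.05 (adjusted p = 0.792). In myeloid-like cells all 3 fell, Atp5g1 by 0.41 (adjusted p = 0.0234). The differences between the copies were not tested. Processed copies of such genes elsewhere in the genome can take or lose reads, and that share cannot be told from these counts.

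Cox4i1, the common isoform of a regulatory complex IV subunit and with 188615 UMIs the most counted gene of that complex, had 1280 to 1450 CPM in CB-like cells, was called lower in T cell-like cells (-0.41, adjusted p = 6.14e-05) and slightly higher in plasma-lineage cells (0.19, adjusted p = 0.0377). With the plasma lineage split, it was called lower in PC-like cells (-0.45, adjusted p = 0.00301) and not called in PB-like cells (0.22, adjusted p = 0.127). The most counted genes of the other complexes were Atp5b with 176352 UMIs, Uqcrh with 95268 and Ndufa13 with 70306. Ndufa13 was called in plasma-lineage cells alone, at 0.54 (adjusted p = 1.21e-06). Cox4i2, the isoform known from lung, had 23 of its 111 UMIs in the PB-like cluster, and Cox7a1, the heart and muscle isoform, had 0 UMIs in myeloid-like cells. Cox6b2 was called higher in myeloid-like cells (2.11, adjusted p = 0.000298), but 77 of its 78 UMIs there came from Smc3 wt/- replicate 2. Cox6a1, Cox6b1, Cox7a2, Cox8a and Ndufa4, the common forms of their subunits, were each called lower in naive or memory B-like, T cell-like and myeloid-like cells.

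The libraries numbered 1 resembled each other in the levels of single genes. In CB-like cells the libraries numbered 1, one of each genotype, lay below all of the other 4 for 19 of 81 genes and above them for 23, where 14.4% and 16.6% of all genes did so. Uqcrh averaged 489 CPM in the libraries numbered 1 and 727 in the others, and Atp5g2 479 against 738. Atp5h, a stator subunit of complex V, averaged 446 against 681. These 3 genes, with Atp5d and Cox6b1, were below the other 4 libraries in all 7 classes with 6 libraries, whereas Uqcrc1, a core protein of complex III, was above in all 7, with 409 against 326 CPM in CB-like cells. The labels do not say what the numbers stand for. The class comparisons used the library as a block.

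The last question was whether loss of 1 Smc3 allele changed these genes. Smc3 itself over all kept cells had 134, 158 and 148 CPM for Smc3 wt/wt replicates 1 to 3 and 136, 78.6 and 163 for Smc3 wt/- replicates 1 to 3 (log2 difference -0.22, SE 0.28, adjusted p = 0.925). In CB-like cells the difference was -0.05 (SE 0.17, adjusted p = 1.0), with 134 CPM in Smc3 wt/- replicate 2, the library at 78.6 over all its cells. The groups overlapped. Reads come from the 3′ end of the transcript, outside the deleted exon, and whether the deletion lowers the level there was not tested. In its lymphoma RNA-seq the paper reported reduced Smc3 expression. The values here do not check the genotype.

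With edgeR no member was called between the genotypes in any of 9 comparisons (all kept cells and the 8 classes), and neither was any other gene, so the share called was 0% throughout. At an unadjusted p under 0.05 stood 1.41% of genes in all kept cells, 2.03% in CB-like, 2.06% in S-phase GC B-like, 2.28% in recycling-like, 2.29% in CC-like, 2.01% in naive or memory B-like, 4.36% in plasma-lineage, 2.93% in T cell-like and 2.35% in myeloid-like cells. Of the members, 1 passed this level in recycling-like and 1 in T cell-like cells, and none in the others. DESeq2 called no member either, and 1 other gene in S-phase GC B-like and 1 in CC-like cells.

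The median log2 difference of the members, Smc3 wt/- minus Smc3 wt/wt, lay between 0.03 in CB-like, plasma-lineage and all kept cells and 0.14 in T cell-like cells. With Smc3 wt/- replicate 2 left out the median was -0.009 in T cell-like and 0.002 in plasma-lineage cells, so the upper end of this range rests on that library. Over all genes, with all libraries, the median lay between -0.009 in CB-like and 0.019 in plasma-lineage cells. In CC-like cells 69 of 80 members were positive and 11 negative, with a median of 0.125, or 0.076 without Smc3 wt/- replicate 2. In plasma-lineage cells 43 were positive and 35 negative. These tallies were not tested. In CB-like cells all 82 members tested were within 0.5 of 0 on the log2 scale, and in all kept cells 81 of 83 were, against 75 of 78 in plasma-lineage and 60 of 66 in myeloid-like cells, where the highest values were 0.76 and 0.93. The median SE of a member was 0.148 in CB-like and 0.299 in myeloid-like cells, with 3 libraries per genotype, or 2 in myeloid-like cells. A call after adjustment over all genes needs a difference of several SEs, and even the values of 0.76 and 0.93 were not called. Differences well above these SEs could therefore have been missed. With the replicate number as a block in the fit, again 0 members were called in each of the 9 comparisons.

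**Figure D5:**
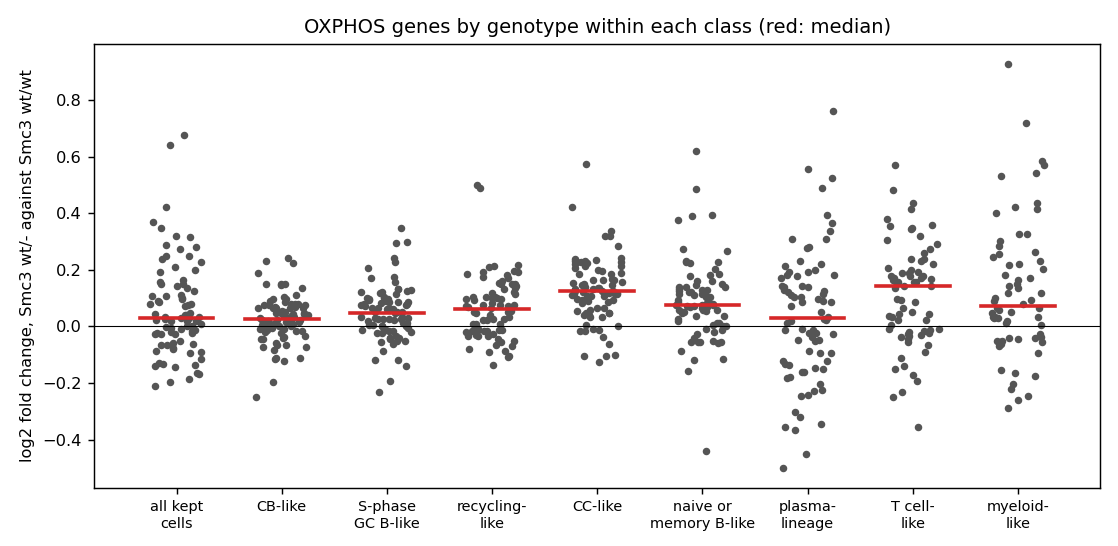
Log2 difference between Smc3 wt/- and Smc3 wt/wt libraries (y axis) in all kept cells and in each class (x axis), with 1 point per gene and a red bar at the median. Medians lie between 0.03 and 0.14 and no point passed the test.

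Whether the differences between classes depended on genotype was tested with an interaction term over 10372 genes, added after the class results were known. No member was called for any class, and the share of all genes called was 0% for 6 classes and 0.0482% for myeloid-like cells. At an unadjusted p under 0.05 the shares of all genes were 0.569% for S-phase GC B-like, 1.48% for recycling-like, 1.59% for CC-like, 3.65% for naive or memory B-like, 11.9% for plasma-lineage, 6.46% for T cell-like and 11.3% for myeloid-like cells, where 0, 0, 0, 1, 4, 8 and 17 of 83 members passed. Without Smc3 wt/- replicate 2 these were 1, 0, 0, 5, 3, 1 and 2 members, where 2.2%, 3.72%, 3.66%, 4.71%, 7.04%, 4.64% and 4.58% of all genes passed, and Smc3 wt/- replicate 3 is then the lone library of its genotype with at least 20 myeloid-like cells. The larger number in T cell-like cells therefore rests on Smc3 wt/- replicate 2, while in myeloid-like cells the lone library is assumed to vary like the other sums in the fit.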

How the data were processed

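Single-cell RNA was captured with 10x Genomics 3′ v2 chemistry. Per the file headers and the submitters' processing notes, the authors made the deposited UMI counts, 1 matrix per library, with Cell Ranger 3.0.2 on mm10, without normalization, and their notes also name R 4.0.2 and Seurat 4.0.0. Reads near 3′ ends carry no length term, so levels were not compared between genes. Barcodes with at least 500 genes and at most 10% mtDNA-encoded UMIs were kept (21568 of 22939), and 759 doublets were removed with Scrublet through scanpy 1.11.5, at 0.8% per 1000 cells, leaving 20809. Libraries were integrated and clustered in Seurat 5.3.0 (R 4.3.3) on 1825 of 2000 variable features, after the genes described here, mtDNA-encoded, ribosomal protein and the other listed metabolic genes were removed, at resolution 0.5 on 30 principal components and 20 neighbours.

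Counts were summed per library and class where at least 20 cells were present, without immunoglobulin genes, and tested with edgeR 4.0.16 (quasi-likelihood, TMM, filterByExpr, Benjamini-Hochberg over all genes tested, threshold 0.05). The library was a block in the class comparisons, and the genotypes were compared per class without a block, with libraries as replicates. The edgeR default was kept by which p is never smaller than that of a Poisson fit, which weights libraries by depth. The scripts were tested on simulated data. The members and gene lists were chosen with earlier results of these data known. Genes named were, per comparison, up to 5 higher and 5 lower with the largest differences among those called and moving the same way in every library, the isoform sets, the most counted gene per complex and the genes at the floor.

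The replicate numbers in the labels are shared by both genotypes. For libraries sharing a number, distances from the mean of their genotype were correlated. The values in CB-like cells were 0.672, 0.361 and 0.327 for numbers 1 to 3. They were above 0.1 for each number in S-phase GC B-like, recycling-like, CC-like and naive or memory B-like cells. Libraries of different numbers were not correlated. Because the libraries numbered 1 lay apart, positive values for numbers 2 and 3 can arise without pairs and do not show them. In plasma-lineage and T cell-like cells number 2 gave 0.0288 and -0.0443. Alternatives were DESeq2 1.42.0, other scaling, filters, clustering settings and each library left out.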

Additional observations from a re-analysis of the deposited data

Results flagged for a closer look

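Of 75 sets of 4 to 6 libraries examined, 13 had 1 library set apart by a gap that chance gives in about 1 set in 20. Smc3 wt/- replicate 2 accounts for most of them. Its member share in plasma-lineage cells was 2.5% against 3.51% to 3.75% in the other libraries, its ratio of nuclear to mtDNA-encoded UMIs there was 0.792 against 1.44 to 1.65, and its member share over all kept cells was 2.61% against 3.29% to 3.57%. In plasma-lineage cells it also stood apart for Atp5g1, at 923 CPM against 1200 to 1310, for Uqcrq, at 1170 against 714 to 833, and for Ndufa1, at 1460 against 379 to 669. This library held 1384 PC-like and 359 PB-like cells, and in each other library PB-like cells were the larger part.

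In S-phase GC B-like cells the same library had 62.9 CPM of Ndufaf2 against 42.2 to 48.9, and in myeloid-like cells 702 CPM of Ndufa6 against 336 to 379. Smc3 wt/wt replicate 1, the shallowest library, stood apart for Ndufa1 in recycling-like cells, at 323 CPM against 186 to 237, for Ndufs5 in CC-like cells, at 170 against 207 to 223, and for Ndufaf4 in T cell-like cells, at 71.6 against 27.7 to 41.6. Smc3 wt/wt replicate 2 had 489 CPM of Ndufa6 in T cell-like cells against 286 to 361, and 222 CPM of Atp5a1 in myeloid-like cells against 347 to 370, where it held 21 cells.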

How the results depend on the processing

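Each count was recomputed under every alternative that could be run. The share of all genes called in the same fit stands in brackets. For S-phase GC B-like cells, where 4 members were called (17.6%), 2 were called with no low-count filter (10.1%), 2 without integration (17.3%), 2 with no replicate block, that is without the library as a block (7.58%), and 22 with DESeq2 (18.6%), 21 of them higher. With 1 library left out it was 2 to 29 (11.4% to 43.4%). For CC-like cells, where 13 were called (31.4%), the number was 40 with DESeq2 (32.5%), 20 with immunoglobulin kept (31.7%), 25 with RLE scaling (32.4%), 23 at resolution 1 (35.9%), 40 with doublets kept (35.8%), 3 with no replicate block (22.1%) and 6 to 52 with 1 library left out (25.2% to 45.7%). The highest values, 29 and 52, came without Smc3 wt/- replicate 2. For plasma-lineage cells, where 56 were called (58.4%), it was 36 with no low-count filter (35.5%) and 35 for PB-like cells alone with total counts, and the median log2 difference reversed to -0.06 with total counts. For recycling-like, naive or memory B-like, T cell-like and myeloid-like cells the number called in either direction stayed within 1.5 times under every alternative run, but the split by direction did not: with RLE scaling myeloid-like cells had 31 lower in place of 48, and recycling-like cells had 16 lower in place of 7 without Smc3 wt/- replicate 2. The recycling-like class was not found without integration or with doublets kept, so it has no value there.

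With mtDNA-encoded and cytosolic ribosomal protein genes left out of the total, the member shares were 4.44% in CB-like, 4.92% in S-phase GC B-like, 5.0% in recycling-like, 4.2% in CC-like, 3.56% in naive or memory B-like, 4.45% in plasma-lineage, 3.84% in T cell-like and 3.04% in myeloid-like cells. With immunoglobulin kept in the total, the plasma-lineage share was 2.39%. Of 55 named differences 36 kept direction and threshold under every setting run, 19 missed the threshold at least once, and 1 reversed: Ndufaf6 in CC-like cells had -0.19 at resolution 1 (adjusted p = 0.491). With the replicate block the genotype comparisons again called 0 members each, and at an unadjusted p under 0.05 stood 1 in recycling-like, 2 in CC-like and 1 in naive or memory B-like cells. The splits of PB-like and PC-like cells and the interaction were chosen after seeing the data. Depth limits the PC-like values of 5 libraries and the myeloid-like values, for which 2 libraries had fewer than 20 cells.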

Other observations

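The haemoglobin-led cluster of 3712 cells that was left unnamed had a member share of 3.02% ± 0.389 (SD, n = 6 libraries), below that of CB-like cells of the same library in 6 of 6 libraries, and 0.759 ± 0.124 nuclear per mtDNA-encoded UMI. In Smc3 wt/- replicate 2 its share was 0.731 times that of CB-like cells, and in the other libraries 0.910 to 0.965 times.

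Within CB-like and S-phase GC B-like cells the clusters differed in their member share. Cluster 6, led by Ccne2, Ung and Cdc6 (genes of the entry into DNA replication and of its repair), had 3.99% ± 0.142 (SD, n = 6), 1.16 to 1.23 times the CB-like share of the same library. Cluster 1, the other S-phase cluster, had 3.37% ± 0.178, and 0.986 to 1.02 times. Among CB-like clusters, those led by Mxd3 and H2afx and by Cenpf and Ube2c had 3.08% ± 0.139 and 3.09% ± 0.165, and those led by Hist1h2bc and Cdc20 and by Aurka and Plk1 had 3.64% ± 0.216 (n = 6) and 3.69% ± 0.0849 (n = 5). Median UMIs per cell were 8965 in cluster 6 and 5456 in cluster 1, and the part of depth in these shares was not tested.

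Cox6b2 had 44.2 CPM in the largest myeloid-like cluster, on 67 UMIs of which 66 came from Smc3 wt/- replicate 2, and 25.1 in the neutrophil-type cluster on 7 UMIs. In no B cell cluster was it above 9.69.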
